A study of Saccharomyces cerevisiae with 16 samples.

Results

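Wine yeast that received nitrogen was compared with the same yeast starved of it, with both nitrogen sources and both starved states pooled. The strain was EC1118 of Saccharomyces cerevisiae, a commercial diploid used to ferment wine, and the labels name no genetic change in any group. Of the 15 samples in the series 14 entered the comparison. The fed side held 6 samples, 3 from cultures given ammonium and 3 from cultures given valine, and the starved side held 8, 4 without addition and 4 from batch. Members were taken from the sample labels alone. The remaining sample was left out because its title names ammonium and its treatment label valine.

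All cultures grew on a synthetic grape must with glucose at 200 g/L and assimilable nitrogen at 100 mg/L. In the continuous fermentation, tanks were linked in a series of 4 stages, and cells of the stage before the last had run out of nitrogen. Samples without addition came from that stage at 164 g/L residual glucose. Ammonium or valine was then fed into it, which supplied a further 100 mg/L nitrogen, and cells were taken once a new steady state was reached. The batch samples came from stirred fermentors at 28 °C, in stationary phase, with residual glucose again at 164 g/L. Continuous samples were drawn 24 h apart from a running culture and are termed biological replicates in the labels, so that p-values measure the spread between samplings, which may be technical. Residual glucose under either feed and the temperature of the continuous culture are not stated in any label. Each feed followed the unfed state in time, so that the feed and the later date of sampling cannot be told apart. Both feeds were given only in continuous culture, so that a difference from batch also includes the kind of culture.

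Nitrogen is the nutrient that most often limits wine fermentation. When it runs out, yeast stops dividing while it goes on fermenting sugar. As background, a good nitrogen supply activates the TORC1 kinase, which favours ribosome production and growth and holds back autophagy and the stress programme. It also sets nitrogen catabolite repression, by which GATA factors leave genes for poor nitrogen sources silent while a preferred source such as ammonium or glutamine is present. Ammonium is taken up by Mep permeases and fixed into glutamate and glutamine, whereas valine gives up its amino group through branched-chain transaminases.

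Expression was read as deposited log2 intensities on 1-colour arrays, 1 value per probe, for 6248 genes or unnamed features. Array medians lay between 9.09 and 9.1. Precision is limited by how few arrays there are. Samples of a group differed from each other with an SD of 0.11 to 0.30 over genes on the log2 scale, and a fed and a starved sample with an SD of 0.62 to 0.88. The 2 arrays of ammonium sample 3, which were averaged, differed with an SD of 0.17. The labels give each array the number 1 or 2 and a block, and the number is read here as the slide. Slide 1 held 1 ammonium, 2 valine, 1 no-addition and 3 batch arrays, and slide 2 held 3, 1, 3 and 1. Some samples stood apart. Ammonium sample 2 lay nearer to the starved samples than the other fed samples did, sample 4 of the cultures without addition lay nearer to the fed ones, and batch sample 1 departed from the other batch samples. Because the arrays were scaled to 1 distribution, differences are relative to the whole of each array, and a change in total mRNA would not be seen. In whole cultures, a change in the share of cells with a transcript and a change in its amount per cell cannot be told apart.

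Each difference below is the mean of both feed groups minus the mean of both starved groups on the log2 scale, with its standard error from limma, in which every group has equal weight. The threshold for a call was a p under 0.05 after Benjamini-Hochberg adjustment. In this pooled contrast 2151 genes were called higher in fed cells (34.4% of 6248) and 2417 lower (38.7%). A pooled difference can rest on 1 feed or on 1 starved state. A gene was therefore termed common only if its difference had the same sign for ammonium and for valine, against no addition and against batch, and if the largest of these 4 p-values passed after adjustment over all genes. The common adjusted p quoted below is that value, from limma. By this rule 1161 genes were common higher (18.6%) and 1226 common lower (19.6%). These shares are the background for the counts of common members in the gene lists below. The 4 contrasts share their feed and starved samples and are not independent of each other.

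Of the 4568 called genes 2181 were not common, and 826 of these had the opposite sign in at least 1 of the 4 contrasts. Among common genes, 225 were higher and 185 lower by at least 1 on the log2 scale in each contrast, and 52 and 38 by at least 2. Fed and starved samples did not overlap for 1160 genes with all fed samples higher (18.6%) and for 1217 with all lower (19.5%). Of the 2387 common genes 2229 were among these. On slide 1 alone 1326 and on slide 2 alone 1612 of the common genes passed the rule, with fewer arrays.

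The fed samples formed 1 side of the main axis of variation and both starved groups the other. The first principal component carried 74.6% of the variance. Its scores ran from 28.6 to 37.6 in fed samples and from -29.2 to -16.8 in starved samples. Ammonium sample 2 had the lowest fed score and no-addition sample 4 the highest starved score. The second component, with 17.4%, separated the no-addition samples (-20.3 to -17.0) from batch (7.56 to 22.7), and batch sample 1 had the lowest batch score. Over all genes, 80.1% of the sum of squares between the 4 groups lay between fed and starved, 15.8% between the starved states and 4.09% between the feeds.

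**Figure D1:**
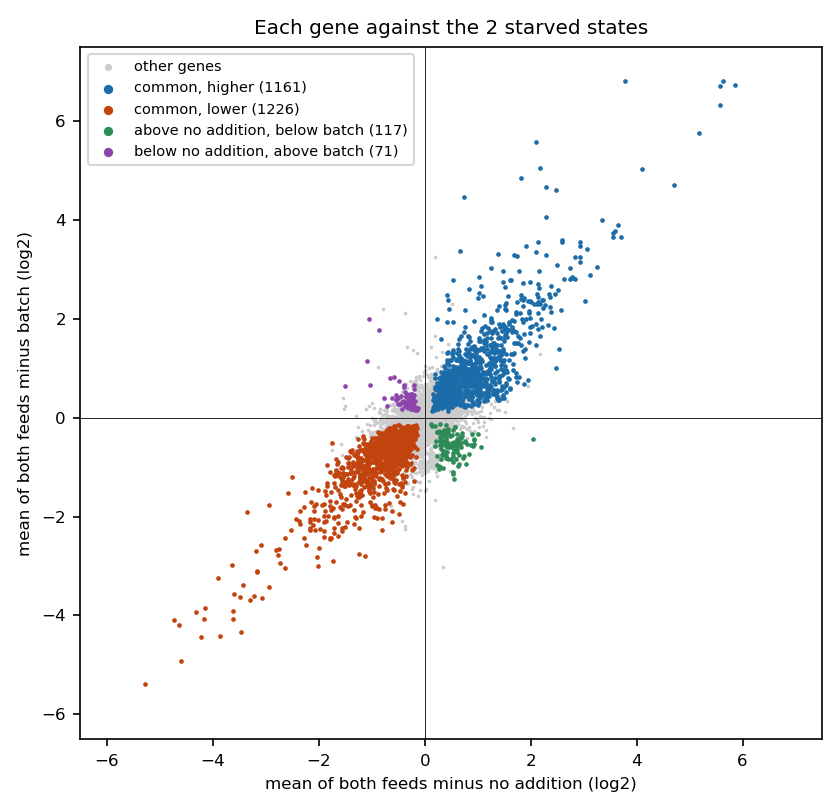
Each point is a gene, placed by its log2 difference of both feeds from no addition (x axis) and from batch (y axis). The 1161 common higher genes lie in the upper right and the 1226 common lower genes in the lower left. Of the genes whose fed level fell between the starved states, the 117 above no addition and below batch lie in the lower right. The 71 below no addition and above batch lie in the upper left. Both axes share the fed samples, so that points near the diagonal are partly a product of the construction.

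Genes of thiamine synthesis led the common increases. Thiamine is the cofactor of pyruvate decarboxylase, and yeast makes it from a thiazole ring and a pyrimidine ring that needs vitamin B6. Of 26 thiamine and vitamin B6 genes 25 were common higher and 0 common lower, against 18.6% of all genes, and the median difference was 2.18 against -0.02 over all genes. Within slides the median was 2.25 on slide 1 and 2.16 on slide 2.

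THI11, of the family that makes the pyrimidine ring, read 13.70, 13.83 and 13.86 in the ammonium samples, 13.36, 13.07 and 12.93 in the valine samples, 6.86, 6.97, 6.82 and 9.72 without addition and 6.98, 6.64, 6.68 and 6.62 in batch. All fed samples were high, and among the starved ones no-addition sample 4 was higher than the rest. Lack of overlap between fed and starved samples was a condition for naming this gene among the leading ones. The difference was 6.30 ± 0.36, a 78.5-fold higher geometric mean (common adjusted p = 4.68e-07), and 6.65 without no-addition sample 4. Its near-identical copies THI5 (6.22), THI12 (6.14) and THI13 (5.95) moved alike, and probes may not tell the 4 apart. THI4, which forms the thiazole ring, read 15.73, 15.85 and 15.81 in the ammonium samples, 15.90, 15.83 and 15.92 in the valine samples, 11.46, 11.93, 11.62 and 13.20 without addition and 9.32, 8.94, 8.85 and 9.0 in batch. Its fed values lay close to the array maxima of 15.82 to 15.96. Saturation could not be read here, so its difference may be compressed. It also differed between the starved states, by 3.03 ± 0.27 without addition minus batch (adjusted p = 3.92e-07). The pooled difference was 5.30 ± 0.21, and 5.49 without no-addition sample 4.

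Further genes of the pathway rose in both feeds against both starved states. THI22 and THI21, of the kinase family for the pyrimidine unit, differed by 5.47 ± 0.22 and 3.61 ± 0.08. PHO3, the acid phosphatase that is repressed by thiamine, lay at 12.30 to 13.01 in the fed samples and 7.57 to 9.002 in the starved samples (4.71 ± 0.18), and PET18 at 13.44 to 14.11 in the fed samples and 8.67 to 10.48 in the starved samples (4.56 ± 0.14). In PHO3 and PET18 the highest starved value was again that of no-addition sample 4. The vitamin B6 genes SNZ1 (1.72 ± 0.05), SNZ2 (2.55 ± 0.07) and SNZ3 (2.72 ± 0.08) were common higher, and SNZ2 and SNZ3 are near-identical. PDC5, a pyruvate decarboxylase gene known to respond to thiamine, lay at 14.97 to 15.23 in the fed samples and 11.60 to 13.13 in the starved samples (3.10 ± 0.17, 8.57-fold). PDC2, the activator of the thiamine and decarboxylase genes, was the member without a common call (-0.10 ± 0.04, pooled adjusted p = 0.026).

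**Figure D2:**
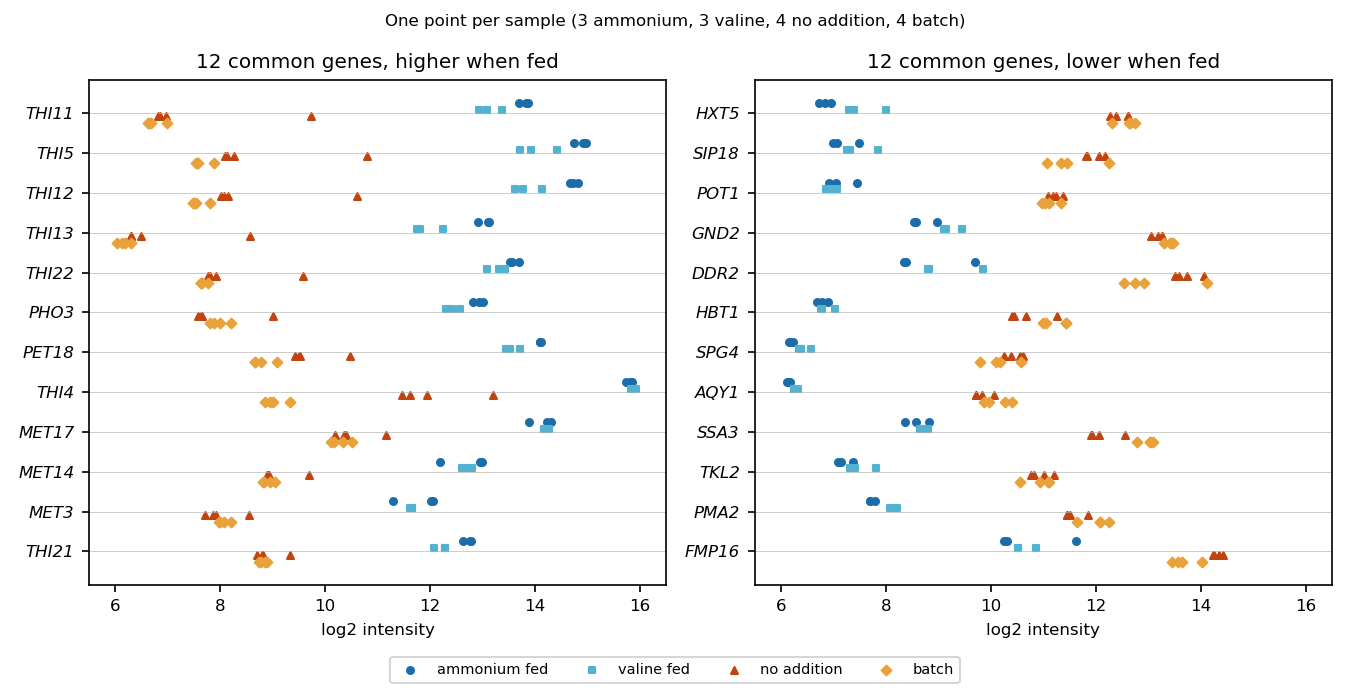
Log2 intensity (x axis) of the 12 named common genes in each direction whose smallest difference over the 4 feed and starved pairs was largest, 1 point per sample. Fed samples (blue) lie to the right of starved samples (red and orange) in the left panel and to the left in the right panel. Genes were chosen from those without overlap of fed and starved samples, so that this separation follows from the choice. In THI11 and other thiamine genes no-addition sample 4 lies between.

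Sulfate assimilation was higher in both feeds. This pathway reduces sulfate to sulfide and builds it into cysteine and methionine. Of 28 genes 25 were common higher and 0 lower, with a median difference of 1.91 (2.07 on slide 1 and 1.83 on slide 2). MET17, which joins sulfide to O-acetylhomoserine, read 14.23, 13.88 and 14.31 in the ammonium samples, 14.21, 14.26 and 14.17 in the valine samples, 10.18, 10.40, 10.36 and 11.15 without addition and 10.11, 10.16, 10.33 and 10.50 in batch. The fed samples were far above the starved ones, and no-addition sample 4 was the highest of these. Its difference was 3.78 ± 0.13 (common adjusted p = 7.07e-10). MET14 (3.69 ± 0.14) and MET3 (3.67 ± 0.13), which activate sulfate, and the sulfate permease SUL2 (3.25 ± 0.10) followed. In ammonium sample 2 the list lay lower than in the other fed samples, at a median deviation of 0.59 from the mean of the 4 groups against 0.95 to 1.14. Without that sample the median difference was 1.997, and 25 genes were again common. The S-methylmethionine permease MMP1 (1.78 ± 0.10) and the methionine permease MUP3 (1.67 ± 0.10) were common higher as well. The members without a common call were the activator MET4 (-0.05 ± 0.09), STR2 (0.29 ± 0.05) and SAH1 (0.23 ± 0.04).

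Amino acid synthesis was higher along most of the pathways examined. Common higher were 9 of 12 genes for branched-chain amino acids (median 0.94), 8 of 9 for lysine (1.23), 6 of 8 for arginine (1.26) and 15 of 20 for aromatic amino acids and histidine (1.20). LYS5, which activates the lysine enzyme Lys2, was the 1 common lower gene of these lists (-0.43 ± 0.04). In the branched-chain pathway, BAT1, the mitochondrial transaminase, lay at 13.89 to 14.34 in the fed samples and 11.65 to 12.28 in the starved samples (2.17 ± 0.05). LEU9 (2.38 ± 0.10) and LEU4 (1.72 ± 0.06), isopropylmalate synthases of leucine synthesis, and ILV3 (2.10 ± 0.07), which serves isoleucine, leucine and valine alike, also rose. Valine is a product of this pathway, and the list did not stand lower in the valine samples: its median deviation was 0.46, 0.23 and 0.52 with ammonium and 0.56, 0.71 and 0.57 with valine. Of its 12 genes 4 were called higher with valine than with ammonium and 0 lower, against 549 and 474 of all 6248 genes. ILV5 was common (1.28 ± 0.17, common adjusted p = 0.0354), but lost that call when any of ammonium samples 1 and 3, valine samples 1 and 2 or batch samples 1 and 2 was left out. ILV2 (0.47 ± 0.07) and LEU1 (0.50 ± 0.07) were called in the pooled contrast without being common, and LEU1 became common without batch sample 1.

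In lysine synthesis LYS9 (2.11 ± 0.06) and LYS21 (1.61 ± 0.07) were among the leading common genes, and LYS20, another homocitrate synthase gene, rose by 1.23 ± 0.11. In arginine synthesis ARG4, the argininosuccinate lyase, read 12.05, 11.92 and 12.21 in the ammonium samples, 12.36, 12.36 and 12.51 in the valine samples, 10.53, 10.36, 10.34 and 10.42 without addition and 9.96, 9.73, 9.61 and 9.70 in batch. Every fed sample was above every starved one, and the valine samples were above the ammonium samples (ammonium minus valine -0.35 ± 0.09, adjusted p = 0.0206), a call that ended without ammonium sample 1 or 2 or valine sample 3. ARG1, the argininosuccinate synthetase, rose by 1.65 ± 0.07. Ammonium sample 2 had the lowest fed level of the arginine list, at a median deviation of 0.14, and ARG3 (0.88 ± 0.12) became common without it. CPA1, for carbamoyl phosphate, was called lower in the pooled contrast (-0.62 ± 0.08) and was not common. HIS4 (2.31 ± 0.07), ARO8 (2.40 ± 0.10), ARO4 (2.1301 ± 0.08) and HIS1 (1.94 ± 0.05) led the list of aromatic amino acids and histidine. Beside them, the transcript of GCN4, the activator of amino acid synthesis genes that is known to be controlled mostly at translation, differed by -0.23 ± 0.06 and was not common (common adjusted p = 0.201). GCN2, the kinase that responds to uncharged tRNA, was common lower (-0.49 ± 0.05).

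One-carbon units and nucleotides followed the amino acids. Of 16 one-carbon genes 10 were common higher and 0 lower (median 0.87), against 18.6% and 19.6% of all genes. SER33 (2.24 ± 0.09) and SER3 (1.97 ± 0.11), which open serine synthesis, rose with SHM2 (1.41 ± 0.04) and ADE3 (1.35 ± 0.06), which make and interconvert folate-bound one-carbon units. Of 24 purine and pyrimidine genes 12 were common higher and 2 lower (median 0.64). ADE17, an enzyme of the last steps to inosine monophosphate, rose by 1.90 ± 0.08, while its isoenzyme gene ADE16 was common lower (-0.54 ± 0.05). ADE12 (1.48 ± 0.09), ADE13 (1.33 ± 0.10) and URA2 (1.19 ± 0.07) were higher, and URA10, the minor orotate phosphoribosyltransferase gene, was lower (-0.71 ± 0.08).

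Much of the machinery of translation rose in both feeds, by less against batch than against no addition. Of 135 ribosomal protein genes 130 were called higher in the pooled contrast and 0 lower, and 73 were common higher. The median difference was 0.73, and 0.74 on slide 1 and 0.74 on slide 2. It was larger against no addition (1.12 with ammonium, 0.92 with valine) than against batch (0.46 and 0.30). Without addition 126 of the 135 genes were called lower than in batch, against 1686 of all 6248 genes. RPS9A (1.64 ± 0.08) and RPS20 (1.21 ± 0.06) led the common members. RPS4A read 13.33, 13.23 and 13.39 in the ammonium samples, 13.31, 13.38 and 13.26 in the valine samples, 11.92, 12.08, 11.98 and 12.06 without addition and 12.74, 12.75, 12.75 and 12.80 in batch, so that batch lay between the fed samples and those without addition. Many ribosomal protein genes are near-identical pairs that probes may not separate.

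Of 19 cytosolic tRNA synthetase genes 16 were common higher and 0 lower (median 0.87, 0.91 on slide 1 and 0.82 on slide 2). CDC60, for leucine, rose by 1.75 ± 0.12, and FRS1, for phenylalanine, by 1.44 ± 0.05. The members without a common call were ALA1 (0.28 ± 0.05), GLN4 (-0.02 ± 0.06) and KRS1 (-0.07 ± 0.05), whose fed level lay between the starved states. Genes of RNA polymerases I and III were common higher in 5 of 25, near the 18.6% of all genes, and lower in 1, below the 19.6% of all genes. RPA190 (0.77 ± 0.05) and RPA135 (0.77 ± 0.04), the large subunits of polymerase I, were among the 5, with RPC17 (0.49 ± 0.05), whose call ended without valine sample 1 or 2 or batch sample 1 or 2, and the shared subunit genes RPB8 (0.82 ± 0.04) and RPB10 (0.50 ± 0.05). RPC34, of polymerase III, was the lower one (-0.38 ± 0.04). The polymerase median was 0.56 with ammonium and 0.39 with valine against no addition, but 0.06 and -0.02 against batch. Of 38 translation factor genes 12 were common higher, among them TEF4 (1.01 ± 0.06) and PRT1 (0.87 ± 0.06), and 3 lower. Over all genes 18.6% were common higher and 19.6% lower. The factor median was 0.68 with ammonium and 0.60 with valine against no addition, but 0.14 with each against batch. Without addition 29 of the 38 were called lower than in batch, against 1686 of all 6248 genes. The 3 common lower factor genes were HYP2, the regulatory kinase GCN2 and CAM1 (-0.36 ± 0.05). The CAM1 call ended without ammonium sample 1 or 3 or batch sample 1 or 2. The paralogs for eIF5A opposed each other: ANB1, known as the form made without oxygen, rose by 0.97 ± 0.07 and HYP2, the aerobic form, was lower (-1.19 ± 0.06).

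Genes of division rose with the feed. Of 40 cell cycle and replication genes 28 were common higher and 0 lower, against 18.6% and 19.6% of all genes. The median difference was 0.82 (0.87 on slide 1 and 0.81 on slide 2). RNR1, the large subunit of ribonucleotide reductase, read 13.01, 12.94 and 13.11 in the ammonium samples, 12.89, 12.84 and 13.003 in the valine samples, 10.29, 10.37, 10.25 and 10.63 without addition and 9.48, 9.37, 9.38 and 9.40 in batch. All fed samples lay close together and far above both starved groups, and batch was lowest. Its difference was 3.07 ± 0.06 (8.4-fold, common adjusted p = 1.92e-11). HUG1, a small protein tied to that enzyme, rose by 3.04 ± 0.09 and the transcription factor TOS4 by 2.17 ± 0.05. CLB1, a B-type cyclin of mitosis, lay at 10.16 to 10.42 in the fed samples and 6.95 to 8.66 in the starved samples (2.51 ± 0.05), and was higher without addition than in batch by 1.54 ± 0.07 (adjusted p = 7.63e-10). Ammonium sample 2 had the lowest fed median of the list, 0.18 against 0.31 to 0.59, and without it 29 genes were common higher. Of 10 histone genes 5 were common higher and 1 lower, against 18.6% and 19.6% of all genes. HTB2 rose by 1.57 ± 0.06, HHF2 by 0.88 ± 0.05 and HTZ1, the variant H2A.Z, by 1.002 ± 0.06. HTA2 (0.46 ± 0.04) and the linker histone gene HHO1 (0.67 ± 0.05) were also higher, whereas HHT1 was lower (-0.37 ± 0.04).

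Of 22 oxygen-responsive genes 14 were common higher and 5 lower (median 1.02). The members that rose were mostly those known from cells without oxygen. TIR4, a cell wall mannoprotein, read 14.15, 14.06 and 13.87 in the ammonium samples, 13.93, 13.65 and 13.94 in the valine samples, 11.37, 11.47, 11.21 and 11.79 without addition and 10.10, 9.92, 8.61 and 8.70 in batch. All fed samples were high, and batch samples 3 and 4 were lower than batch samples 1 and 2. The difference was 3.54 ± 0.21, and that of its relatives TIR3 3.84 ± 0.25 and TIR2 3.09 ± 0.07. HEM13, for haem synthesis, rose by 2.12 ± 0.10. The 5 common lower members included 2 repressors of genes for low oxygen: ROX1, at 9.75 to 10.83 in the fed samples and 11.04 to 12.63 in the starved samples (-1.49 ± 0.13), and MOT3 (-1.28 ± 0.11). The ROX1 call ended without ammonium sample 3. OLE1, the fatty acid desaturase, was lower (-0.89 ± 0.04), as were CYC7 (-1.82 ± 0.09) and COX5B (-0.59 ± 0.05), known as the isoforms of cytochrome c and of a cytochrome oxidase subunit made at low oxygen. Sterol and fatty acid genes as a list did not move 1 way: 6 of 33 were common higher and 5 lower, against 18.6% and 19.6% of all genes. ELO3, an elongase for very long fatty acids, rose by 3.24 ± 0.08 and the probe annotated FEN1, a symbol that more than 1 current gene lists, by 2.005 ± 0.07, and IFA38 (0.42 ± 0.04) and TSC13 (0.33 ± 0.05), which act in the same elongation cycle as ELO3, were also higher. The lower genes were OLE1 and, of sterol synthesis, ERG5 (-1.25 ± 0.11), HMG1 (-1.12 ± 0.08), IDI1 (-1.02 ± 0.08) and ERG25 (-0.58 ± 0.05). Of the 24 PAU genes, a family of near-identical cell wall genes, 23 were called higher in the pooled contrast, against 34.4% of all genes, and 4 were common higher, against 18.6%. These were PAU11 (0.81 ± 0.04), PAU8 (0.77 ± 0.06), PAU12 (0.62 ± 0.05) and PAU7 (0.47 ± 0.04), and the PAU7 call ended without valine sample 3 or no-addition sample 4. Of the 24 PAU genes 19 were called higher with ammonium than with valine, and 21 higher without addition than in batch. Over all 6248 genes these counts were 474 and 1896. The PAU median was 0.51 with ammonium and 0.10 with valine against no addition, and 0.98 and 0.59 against batch.

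**Figure D3:**
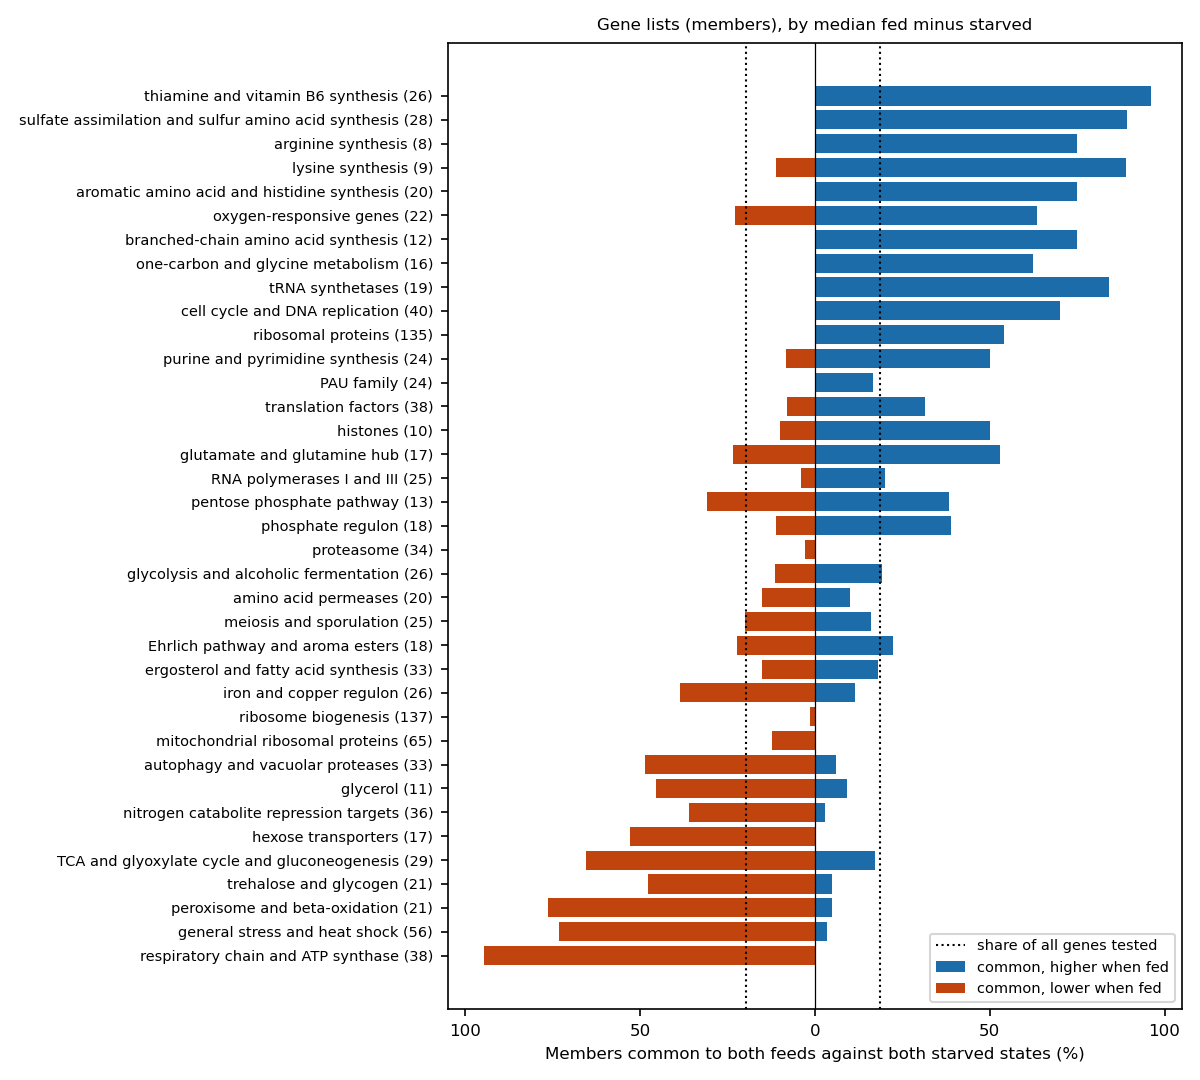
Share of each gene list (members in brackets) that was common higher (blue, to the right) or common lower (red, to the left), in percent, with lists ordered by their median difference. Dotted lines mark the shares of all genes, 18.6% and 19.6%. Thiamine, sulfur and tRNA synthetase genes exceed the line to the right, respiration, stress and peroxisome genes that to the left, and ribosome biogenesis and the proteasome are near 0.

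Among common lower genes the gene at the extreme was HXT5, a hexose transporter made by resting cells. It read 6.83, 6.96 and 6.72 in the ammonium samples, 7.29, 7.39 and 7.997 in the valine samples, 12.62, 12.39, 12.62 and 12.27 without addition and 12.75, 12.32, 12.64 and 12.65 in batch. Fed samples were near the low end of the array and starved samples far above them, and valine samples were above ammonium samples. The difference was -5.33 ± 0.11, a 40.2-fold lower geometric mean (common adjusted p = 1.86e-11). The starved states did not differ detectably in it (-0.11 ± 0.14, adjusted p = 0.51). The aquaporin gene AQY1 (-3.77 ± 0.08), HBT1 (-4.13 ± 0.12) and FMP16 (-3.31 ± 0.18) also stood among the 12 named genes with the largest common decreases. Other transporters were lower by less: HXT6 (-1.38 ± 0.12) and HXT7 (-1.30 ± 0.13), which are near-identical, and HXT1 (-0.74 ± 0.05). Of 17 hexose transporter and sensor genes 9 were common lower and 0 higher, against 19.6% and 18.6% of all genes.

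The stress programme was lower in both feeds. Of 56 stress and heat shock genes 41 were common lower and 2 higher, against 19.6% lower over all genes, and the median difference was -1.07 (-1.17 on slide 1 and -0.99 on slide 2). SIP18, a hydrophilin of dried cells, lay at 6.99 to 7.85 in the fed samples and 11.08 to 12.26 in the starved samples (-4.42 ± 0.16), and SPG4, a gene of stationary phase, at 6.16 to 6.58 in the fed samples and 9.79 to 10.62 in the starved samples (-3.998 ± 0.10). DDR2 read 8.38, 9.70 and 8.35 in the ammonium samples, 8.80, 8.83 and 9.85 in the valine samples, 14.06, 13.58, 13.73 and 13.51 without addition and 14.11, 12.92, 12.53 and 12.75 in batch. It was higher in ammonium sample 2 and valine sample 3 than in the other fed samples, and higher in batch sample 1 than in the other batch samples. Its difference was -4.41 ± 0.28, and -4.64 without these 3 samples. SSA3, an Hsp70 of stationary phase, differed by -3.90 ± 0.10, the catalase CTT1 by -2.23 ± 0.09, and MSN4, an activator of stress genes, by -1.39 ± 0.05. HSP12, a membrane hydrophilin, was lower (-2.05 ± 0.07) in all fed samples and higher without addition than in batch by 1.07 ± 0.09 (adjusted p = 1.85e-07).

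Not every chaperone was lower. The 2 common higher members were SSA2 and HSC82, the constitutive Hsp70 and Hsp90 genes. SSA2 lay at 11.27 to 11.60 in the fed samples and 7.71 to 8.89 in the starved samples (3.21 ± 0.09) and HSC82 at 12.50 to 12.77 in the fed samples and 11.79 to 12.18 in the starved samples (0.65 ± 0.06). SSA1, a near-identical partner of SSA2, differed by -0.28 ± 0.07 and was not common (common adjusted p = 0.411), but became common lower without ammonium sample 2 (-0.36). HSP26 met the rule narrowly (-0.74 ± 0.11, common adjusted p = 0.0484) and lost its call without any 1 of 9 samples, which were ammonium samples 1 and 3, valine samples 1 to 3, no-addition samples 1 and 3 and batch samples 2 and 4. The median of the list was -0.24 in ammonium sample 2, relative to the mean of the 4 groups, against -0.61 to -0.51 in the other fed samples. Without that sample 43 members were common lower.

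Fatty acid breakdown genes were lower in both feeds. Of 21 peroxisome and beta-oxidation genes 16 were common lower and 1 higher (median -0.81, -0.85 on slide 1 and -0.82 on slide 2). POT1, the thiolase of beta-oxidation, read 7.05, 7.44 and 6.93 in the ammonium samples, 6.94, 6.86 and 7.06 in the valine samples, 11.23, 11.19, 11.37 and 11.10 without addition and 11.34, 11.04, 11.11 and 10.97 in batch. Ammonium sample 2 was the highest fed sample. The difference was -4.12 ± 0.08 (common adjusted p = 1.24e-11). CRC1, the carnitine carrier of mitochondria, was lower (-2.12 ± 0.05), as was FOX2 (-1.63 ± 0.05). YAT2, a carnitine acetyltransferase, was the exception (0.47 ± 0.06).

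In the pentose phosphate pathway isoenzymes moved in opposite directions. GND2, the minor 6-phosphogluconate dehydrogenase, lay at 8.53 to 9.45 in the fed samples and 13.06 to 13.47 in the starved samples (-4.34 ± 0.08), and GND1, the main form, rose by 0.83 ± 0.06. TKL2, the minor transketolase, was lower (-3.58 ± 0.11) and TKL1 higher (0.90 ± 0.07). NQM1 was lower (-3.14 ± 0.10) and TAL1, the other transaldolase gene, higher (0.89 ± 0.09). SOL4 was lower (-1.85 ± 0.14) and SOL3, also of the lactonase step, higher (0.63 ± 0.04). With RPE1 (0.24 ± 0.04), 5 of 13 members were common higher and 4 lower, against 18.6% and 19.6% of all genes. The RPE1 call ended without valine sample 1 or 2 or no-addition sample 2, 3 or 4. In the pyruvate decarboxylase family PDC6 was lower (-2.42 ± 0.07), PDC5 higher as given above, and PDC1, the main form, did not differ detectably (-0.05 ± 0.06, pooled adjusted p = 0.461). PMA2, the minor proton pump of the plasma membrane, was lower (-3.84 ± 0.09) and the main pump PMA1, looked up after these values were seen, was higher (0.97 ± 0.11).

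Respiration was lower in 38 of 38 genes of the chain and the ATP synthase, 36 of them common, with a median difference of -1.11 (-1.20 on slide 1 and -1.07 on slide 2) and a range of -2.36 to -0.59. NDE2, an NADH dehydrogenase of the outer face of the inner membrane, lay at 6.82 to 7.21 in the fed samples and 9.20 to 9.58 in the starved samples (-2.36 ± 0.07). COX5A (-2.15 ± 0.06), COX13 (-1.95 ± 0.08) and COX4 (-1.86 ± 0.04), subunits of cytochrome oxidase, and CYC1 (-1.85 ± 0.13), cytochrome c, were lower. The members without a common call were ATP18 (-1.15 ± 0.18) and TIM11 (-0.66 ± 0.09), both of the ATP synthase. Both became common without batch sample 3 or batch sample 4, and TIM11 also without ammonium sample 2. Of 29 genes of the TCA cycle, the glyoxylate cycle and gluconeogenesis 19 were common lower and 5 higher (median -0.66). Over all genes 19.6% were common lower and 18.6% higher. MDH2 (-2.31 ± 0.06), SDH2 (-1.38 ± 0.05) and MLS1 (-1.27 ± 0.06) were lower. The 5 that rose were CIT2 (1.97 ± 0.24), IDP1 (1.04 ± 0.12), MAE1 (1.36 ± 0.08) and the pyruvate carboxylase genes PYC2 (0.97 ± 0.07) and PYC1 (0.35 ± 0.04), which supply citrate, oxoglutarate, pyruvate, NADPH or oxaloacetate. CIT2 stood apart in ammonium sample 2, at 10.47 against 12.38 and 12.56, and its difference was 2.30 without it. Mitochondrial ribosomal proteins were common lower in 8 of 65, under the share of all genes. In the pooled contrast 51 of the 65 were called lower and 2 higher, against 38.7% and 34.4% of all genes. Their median was -0.38 with ammonium and -0.51 with valine against no addition, but 0.005 and -0.17 against batch. Without addition 55 of the 65 were called higher than in batch, against 1896 of all 6248 genes.

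Autophagy and storage genes were also lower. Of 33 autophagy and vacuolar protease genes 16 were common lower and 2 higher (median -0.41), against 19.6% and 18.6% of all genes. ATG8, the ubiquitin-like protein of the autophagosome, lay at 9.93 to 10.48 in the fed samples and 11.39 to 11.80 in the starved samples (-1.34 ± 0.08). PAI3, the inhibitor of proteinase A, was lower (-3.14 ± 0.08), as was the vacuolar mannosidase AMS1 (-1.13 ± 0.06). The 2 higher members were the carboxypeptidase CPS1 (2.39 ± 0.12) and the aspartic protease YPS1 (0.57 ± 0.05). Of 21 trehalose and glycogen genes 10 were common lower and 1 higher (median -0.73), against 19.6% and 18.6% of all genes. The list median was -0.97 with ammonium and -0.91 with valine against no addition, but -0.06 and -0.49 against batch. Without addition 14 of the 21 were called higher than in batch, against 1896 of all 6248 genes. GIP2 (-1.45 ± 0.13), PIG2 (-1.39 ± 0.10) and GLG2 (-1.33 ± 0.05), which regulate or prime glycogen synthesis, were lower, and PGM1 was higher (1.32 ± 0.05). The list depended on ammonium sample 2. Its median deviation was 0.24 in ammonium sample 2, above all batch samples, and -0.54 to -0.45 in the other fed samples, and without ammonium sample 2 12 members were common lower and 2 higher, with a median difference of -0.90. Of 11 glycerol genes 5 were common lower and 1 higher, against 19.6% and 18.6% of all genes. GCY1 (-1.68 ± 0.08), GPP1 (-1.47 ± 0.05) and GUT2 (-1.44 ± 0.06) were lower, as were DAK1 (-0.64 ± 0.07) and GPD1 (-0.44 ± 0.05), the main glycerol phosphate dehydrogenase gene under osmotic stress. The GPD1 call ended without ammonium sample 1 or 3 or batch sample 3 or 4. The 1 higher gene was GUT1 (0.41 ± 0.06, common adjusted p = 0.0344), which lost its call without any 1 of 5 samples, ammonium samples 2 and 3 and no-addition samples 2 to 4.

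Part of the genes under nitrogen catabolite repression were lower in both feeds, and part differed between the feeds. Of 36 targets 13 were common lower and 1 higher (median -0.46), against 19.6% lower over all genes. MEP2, the high-affinity ammonium permease, read 13.99, 13.74 and 13.67 in the ammonium samples, 13.66, 13.87 and 13.71 in the valine samples, 14.37, 14.49, 14.40 and 14.43 without addition and 14.47, 14.52, 14.43 and 14.41 in batch. Fed samples lay below starved ones without overlap, and the feeds did not differ detectably (ammonium minus valine 0.05 ± 0.08, adjusted p = 0.712). The pooled difference was -0.67 ± 0.05 (common adjusted p = 5.96e-06). PUT1, the proline oxidase, was lower (-1.19 ± 0.06), as was DAL80, a GATA repressor (-0.70 ± 0.08). Larger differences were found in permeases and enzymes for poor sources: DAL4 for allantoin (-3.57 ± 0.19), PUT4 for proline (-3.18 ± 0.18), UGA4 for 4-aminobutyrate (-2.50 ± 0.24) and the allantoicase DAL2 (-1.64 ± 0.12). In DAL4 ammonium sample 2 stood at 10.23 against 8.72 and 8.73, and in UGA4 at 9.97 against 8.05 and 7.84. Without this sample 15 targets were common lower. CPS1, a target by its place in the list, rose in both feeds as given above.

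In other targets the feeds were opposed or unequal. AGP1, a broad amino acid permease, read 10.75, 10.50 and 10.63 in the ammonium samples, 14.20, 14.33 and 14.16 in the valine samples, 10.26, 10.60, 10.51 and 10.53 without addition and 11.39, 11.92, 12.09 and 11.74 in batch. It was high with valine, low with ammonium and without addition, and batch lay between. The pooled difference of 1.30 ± 0.09 was called, yet the gene was not common, and ammonium minus valine was -3.60 ± 0.14 (adjusted p = 1.37e-09). BAT2, the cytosolic branched-chain transaminase, was high with valine alone: the valine samples read 13.13, 13.25 and 13.06, while the other 11 samples lay between 11.16 and 11.76. GDH2, which releases ammonium from glutamate, was low with ammonium alone, at 10.53, 10.53 and 10.49 against 12.39 to 13.04 elsewhere. The urea permease DUR3 (ammonium minus valine -1.73 ± 0.26, adjusted p = 0.000665) and GAP1, the general permease for amino acids (-0.62 ± 0.14, adjusted p = 0.00758) were also lower with ammonium than with valine. In GAP1 ammonium sample 2 read 14.45 and the others 13.81 and 13.80. The other ammonium permease genes were not common: MEP1 differed by -0.43 ± 0.13 and became common without ammonium sample 2, and MEP3 differed by 0.28 ± 0.06. CAN1, the arginine permease, was not common (-0.70 ± 0.07) and became so without ammonium sample 2. Of 20 amino acid permease genes 2 were common higher, MMP1 and MUP3, and 3 lower, PUT4, ALP1 (-1.36 ± 0.05) and AGP2 (-0.70 ± 0.05), so that the list had no single direction. Over all genes 18.6% were common higher and 19.6% lower.

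Around glutamate, 9 of 17 genes were common higher and 4 lower, against 18.6% and 19.6% of all genes. GDH1, the main NADP-dependent glutamate dehydrogenase that fixes ammonium, read 12.52, 12.07 and 12.55 in the ammonium samples, 11.30, 11.26 and 11.12 in the valine samples, 10.13, 10.09, 10.13 and 10.30 without addition and 9.76, 9.69, 9.94 and 9.88 in batch. Every fed sample was above every starved one, and ammonium samples were above valine samples. The difference was 1.81 ± 0.07 (common adjusted p = 8.16e-07). GDH3, its isoenzyme of respiring cells, went the other way (-2.01 ± 0.05). ALT1, the alanine transaminase, rose by 2.43 ± 0.06 and ASN2, an asparagine synthetase, by 1.35 ± 0.06. The other lower genes of the list were ACO1 (-0.79 ± 0.05), IDH1 (-0.72 ± 0.07) and IDH2 (-0.45 ± 0.05), early steps of the TCA cycle, and the IDH2 call ended without ammonium sample 1 or 3. Glutamine synthetase GLN1 (0.18 ± 0.07) and glutamate synthase GLT1 (-0.27 ± 0.05) were called in the pooled contrast without being common.

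**Figure D4:**
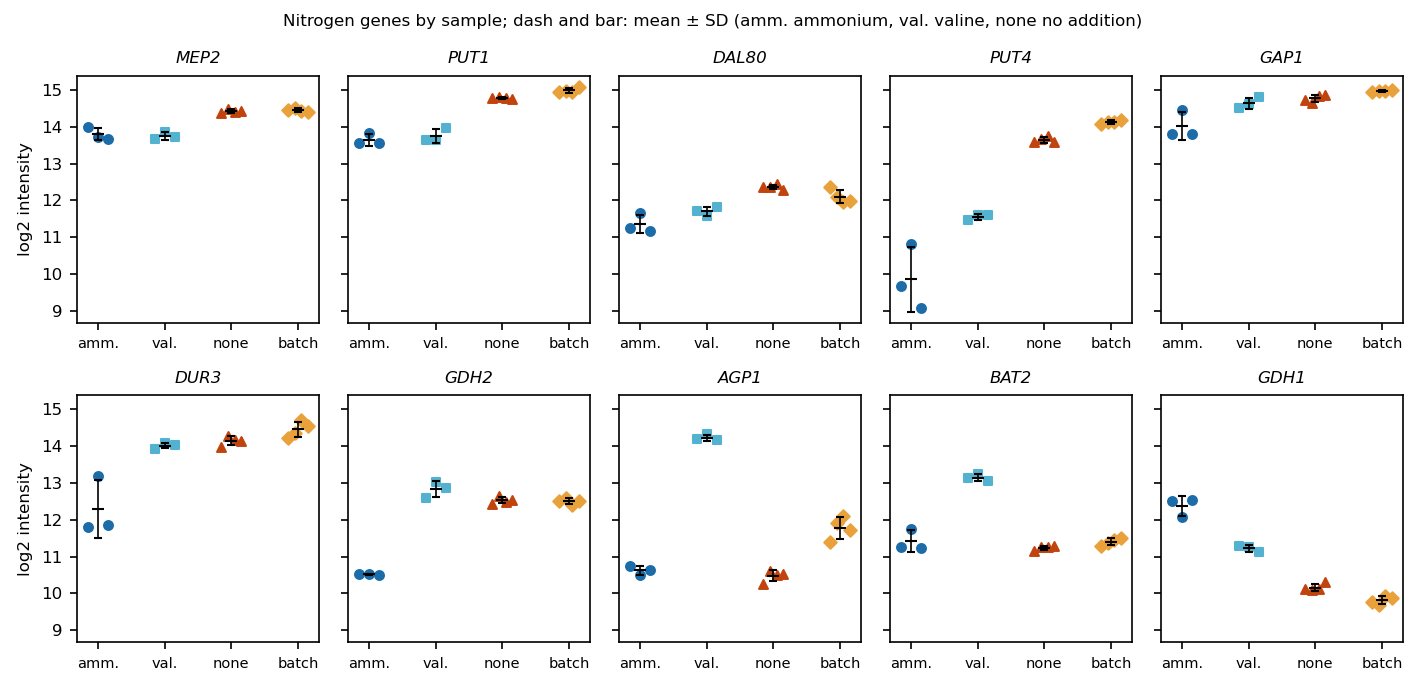
Log2 intensity (y axis) of 10 nitrogen genes in each sample of the 4 groups, with the group mean and SD. MEP2, PUT1, DAL80 and PUT4 are lower in both feeds and GDH1 higher, whereas GAP1, DUR3 and GDH2 are lower with ammonium than with valine and AGP1 and BAT2 higher with valine than with ammonium.

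Some genes of fed cells lay between the starved states, so that the direction of their change depended on the starved culture used. The starved states differed in 3582 genes (57.3%), which is also the test of whether a feed effect depends on the starved state. Both feeds were above no addition and below batch, each difference called, in 117 genes (1.87%). Both were below no addition and above batch in 71 (1.14%). Ribosome biogenesis made up a large part of the first set: 49 of its 137 genes were between, 0 were common higher and 2 common lower. The list median was 0.33 with ammonium and 0.33 with valine against no addition, and -0.66 and -0.70 against batch. Without addition 136 of the 137 genes were called lower than in batch, against 1686 of all 6248 genes. Relative to the mean of the 4 groups the list stood at 0.02, -0.15 and -0.05 with ammonium, -0.10, -0.05 and -0.15 with valine, -0.42, -0.41, -0.45 and -0.41 without addition and 0.36, 0.60, 0.74 and 0.63 in batch. The 4 groups did not overlap except for the feeds with each other, and batch sample 1 was the lowest batch sample.

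HAS1, an RNA helicase of ribosome assembly, read 8.09, 8.18 and 8.20 in the ammonium samples, 7.80, 7.88 and 7.96 in the valine samples, 7.21, 7.33, 7.11 and 7.31 without addition and 8.79, 9.09, 8.97 and 8.94 in batch. Its fed samples lay between the starved groups and overlapped neither. ERB1, RSA4, SSF1 and ARX1, which assemble or export the large subunit, and DUS3, which modifies tRNA, likewise had fed means between the starved ones. In RSA4 batch sample 1, at 7.96, overlapped the fed samples, which lay between 7.74 and 8.05. DBP2, another helicase, also had a fed mean between the starved ones, but its fed samples overlapped those without addition. It lay at 8.73 to 9.27 in fed samples, 8.40 to 8.83 without addition and 11.51 to 12.27 in batch. Its pooled difference was -1.34 ± 0.11, and the gene was not common (common adjusted p = 0.38). The 2 common lower genes of the list were RIO1 (-0.71 ± 0.05) and NOP16 (-0.65 ± 0.05, common adjusted p = 0.0447). The NOP16 call ended without any 1 of 9 samples, which were ammonium sample 3, valine samples 1 to 3, no-addition samples 1, 3 and 4 and batch samples 2 and 4. SFP1, an activator of ribosomal genes, was not common (-0.34 ± 0.06).

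Part of the proteasome had the reverse order. Its list median was -0.17 with ammonium and -0.18 with valine against no addition, and 0.34 and 0.32 against batch. Of its 34 genes 9 were below no addition and above batch in both feeds. Without addition 30 were called higher than in batch, against 1896 of all 6248 genes. RPN4, the activator of proteasome genes, was the 1 common lower member, at 10.66 to 10.78 in the fed samples and 11.19 to 11.80 in the starved samples (-0.85 ± 0.06). In the same class as the 9 were STF2 and RTC3, with CWP1, a cell wall protein, the aldose reductase GRE3, the glutaredoxin GRX1 and TVP15. CWP1 read 10.52, 10.84 and 10.48 in the ammonium samples, 11.13, 11.05 and 11.29 in the valine samples, 11.94, 11.71, 11.70 and 11.68 without addition and 9.34, 9.04, 8.98 and 9.09 in batch. Its order was no addition, then valine, then ammonium, then batch, with no overlap of groups. GRE3 lay at 12.96, 12.96, 12.95 and 12.97 without addition, 11.71 to 12.20 in fed samples and 11.61, 11.28, 11.05 and 11.14 in batch. Fed samples of GRE3 thus lay between the starved groups without overlap. Without batch sample 1, 110 genes in place of 71 had this order.

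**Figure D5:**
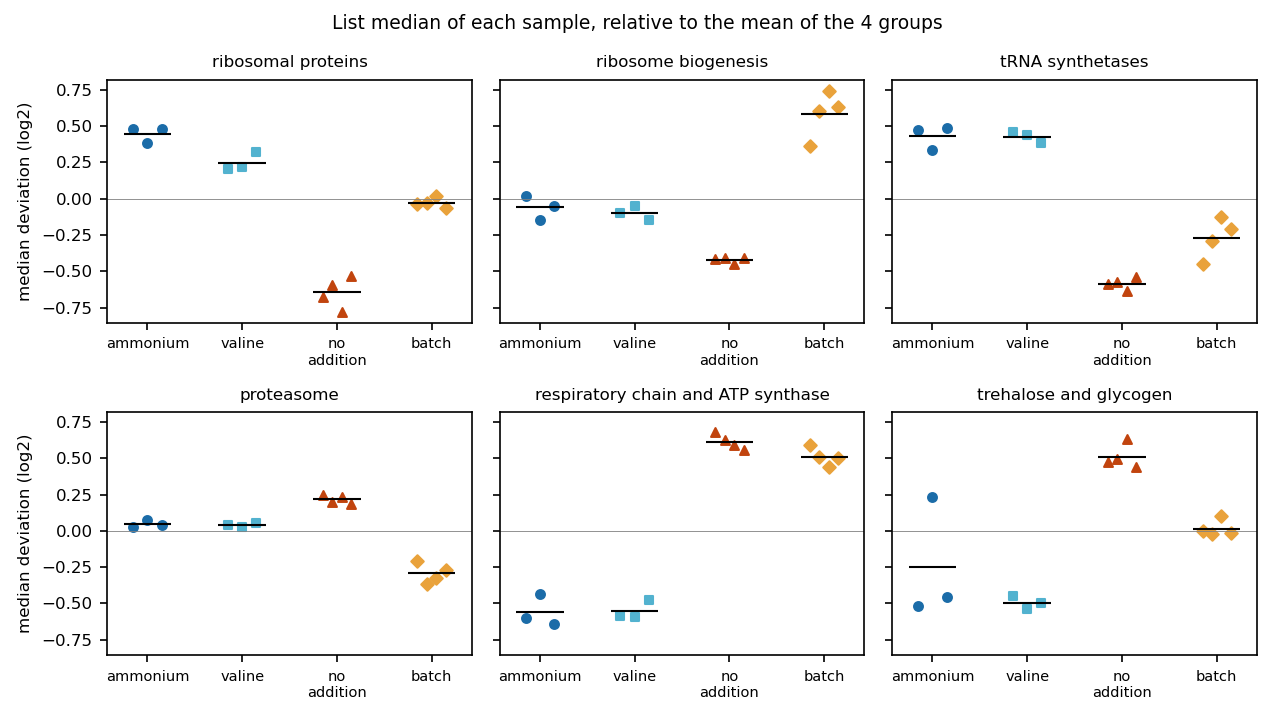
Median deviation of 6 gene lists from the mean of the 4 groups (y axis, log2), 1 point per sample with the group mean as a line. Ribosomal proteins and tRNA synthetases are highest in both feeds and respiration lowest, ribosome biogenesis in fed cells lies between no addition and batch, the proteasome has the reverse order, and ammonium sample 2 stands apart in trehalose and glycogen.

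Ammonium and valine differed in 1023 genes (16.4%), 395 of them common genes, in which the feeds thus shared the direction and differed in size. Of the common higher genes 130 were higher with ammonium and 80 with valine. Of the common lower genes 141 were lower with ammonium and 44 with valine. The count of 1023 depended on single samples of both feeds. It was 501 without valine sample 2, 664 without valine sample 1 and 1115 without valine sample 3. Without ammonium sample 1, 2 or 3 it was 762, 788 and 683. SNZ2 read 10.34, 10.22 and 10.48 in the ammonium samples, 8.89, 8.77 and 8.52 in the valine samples, 6.93, 6.91, 6.94 and 7.27 without addition and 6.91, 6.83, 7.05 and 7.05 in batch. It was high in both feeds and higher with ammonium than with valine (ammonium minus valine 1.62 ± 0.11, adjusted p = 3.37e-07). SNZ3 (1.62 ± 0.12) and GDH1 (1.15 ± 0.11) were likewise higher with ammonium, and DAL4 (0.99 ± 0.28) and DAL2 (0.89 ± 0.18) were lower with valine than with ammonium. Without ammonium sample 2 the difference between feeds was 0.48 in DAL4 and 0.57 in DAL2, and the DAL4 call between feeds ended without valine sample 1 or 2. In DAL4 and DAL2 ammonium sample 2 was the highest fed sample, and the other ammonium samples were also above all valine samples. GIT1, a glycerophosphoinositol permease, read 9.20, 8.03 and 8.87 in the ammonium samples, 11.20, 11.16 and 10.68 in the valine samples, 7.64, 7.70, 7.78 and 7.72 without addition and 7.47, 7.72, 7.95 and 7.79 in batch. It was higher with valine, and ammonium sample 2 lay close to the starved samples. The difference between feeds was -2.32 ± 0.22 (adjusted p = 1.33e-05). STR3 (-1.31 ± 0.12) and IRC7 (-1.19 ± 0.16), beta-lyases of sulfur amino acids, were also higher with valine, IRC7 being known in wine for the release of volatile thiols. PUT4 (-1.70 ± 0.28) and PDC6 (-0.98 ± 0.10) were lower with ammonium than with valine.

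Fermentation enzymes and aroma genes had no single direction. Of 26 genes of glycolysis and alcoholic fermentation 5 were common higher and 3 lower, against 18.6% and 19.6% of all genes. Their median difference was 0.06. HXK2, the main hexokinase in glucose, rose by 1.09 ± 0.08 and ADH5 by 1.86 ± 0.06. ENO2 (0.76 ± 0.05), ADH4 (0.35 ± 0.07) and PDC5 were the others. The ADH4 call ended without any 1 of 7 samples, which were ammonium sample 3, valine samples 1 and 2, no-addition samples 2 and 4 and batch samples 1 and 2. ADH1, the main alcohol dehydrogenase, did not differ detectably (-0.12 ± 0.06, pooled adjusted p = 0.0711), with levels near the top of the array. The 3 lower genes were PDC6, PYK2 (-0.49 ± 0.07) and ALD6 (-0.55 ± 0.09). ALD6, of acetate formation, lost its call without any 1 of 8 samples, which were valine samples 1 and 2, no-addition samples 1, 2 and 4 and batch samples 2 to 4, and PYK2 without valine sample 3 or no-addition sample 3. Of 18 Ehrlich pathway and ester genes 4 were common higher and 4 lower, near the shares of all genes. The higher ones were ARO8, BAT1 and PDC5, given above, and ATF2. The lower ones were PDC6, ARO80 (-0.96 ± 0.04), the activator of aromatic amino acid breakdown, EEB1 (-0.71 ± 0.06), which makes ethyl esters, and ESBP6 (-0.31 ± 0.04), whose call ended without ammonium sample 1, any valine sample or no-addition sample 1 or 3. The alcohol acetyltransferase gene ATF2, which makes acetate esters and acetylates sterols, rose by 2.37 ± 0.07 and lay at 9.003 to 9.47 in the fed samples and 6.29 to 7.38 in the starved samples. Its paralog ATF1 differed by -0.15 ± 0.04 and was not common (common adjusted p = 0.0538), but was so without no-addition sample 1 or batch sample 4.

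Phosphate and metal genes split within their lists. Of 18 phosphate genes 7 were common higher and 2 lower, against 18.6% and 19.6% of all genes. PHO84, the high-affinity phosphate transporter, lay at 9.84 to 10.45 in the fed samples and 6.81 to 7.90 in the starved samples (2.70 ± 0.10), and the acid phosphatase gene PHO11, close in sequence to PHO12, rose by 2.30 ± 0.06. PHM8 (-2.10 ± 0.06) and PHO8 (-0.53 ± 0.05), the vacuolar alkaline phosphatase, were lower. Of 26 iron and copper genes 10 were common lower and 3 higher, against 19.6% and 18.6% of all genes. The copper transporter genes CTR3 (-1.39 ± 0.05) and CCC2 (-1.27 ± 0.04) and the iron permease gene FTR1 (-1.23 ± 0.07) were lower. SMF3, an iron exporter of the vacuole, rose by 1.62 ± 0.06, as did FRE3 (0.86 ± 0.04) and SIT1 (0.66 ± 0.04), of siderophore uptake. Of 25 meiosis and sporulation genes 4 were common higher and 5 lower, near the shares of all genes. SPS100, a spore wall gene, was lower by far more than the others (-3.36 ± 0.14). NDT80 (-0.69 ± 0.07) and IME1 (-0.27 ± 0.04), activators of meiosis, MEK1 (-0.30 ± 0.04) and UME6 (-0.31 ± 0.04) were also lower, and SPS4 (0.49 ± 0.05), SPO13 (0.37 ± 0.05), SSP2 (0.33 ± 0.07) and DIT2 (0.24 ± 0.05) higher. Among these the calls of IME1 and DIT2 ended without any 1 of 8 and 9 samples, and that of SSP2 without valine sample 1. For IME1 these were ammonium samples 1 and 3, the valine samples, no-addition samples 1 and 2 and batch sample 4, and for DIT2 the ammonium samples, no-addition samples 1 to 3 and batch samples 2 to 4.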

How the data were processed

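The series matrix holds 1 value for each of 6271 probes and 16 arrays of 15 samples, deposited by the authors as log2 intensities of 1-colour arrays. R 2.13.1 and limma were used, per the submitters' processing notes. No source used here gives the background correction or the normalization, but array medians, minima (5.50 to 5.56) and maxima were nearly the same. Probes were named through the platform annotation and RefSeq's gene table: 5220 had 1 symbol, 1051 none and 0 several, 51 symbols were updated, and probes of a gene were averaged, which left 6248 features.

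Both arrays of ammonium sample 3 were averaged. A limma fit (limma 3.58.1, R 4.3.3) of 4 group means over 14 samples gave the pooled contrast, the 4 pairwise ones and the differences between the feeds and between the starved states, with Benjamini-Hochberg adjustment over all features at 0.05. Fed genes were termed between the starved states if both feeds differed in opposite directions from them, each at its own adjusted p under 0.05. Figures were drawn with matplotlib 3.10.9 in Python 3.11.15. The fit was tested on simulated data.

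Named genes included the 12 with a standard name in each direction with the largest smallest difference over the 4 pairs. These 12 were taken only from common genes whose fed and starved samples did not overlap. Also named were up to 4 leading common members of each of 37 gene lists and the members outside its majority. A fixed panel of nitrogen, carbon and stress genes was added, with 6 genes in each direction between the starved states. Last were 5 common genes in each direction that differed between the feeds. The comparison, the lists and the panel were chosen with earlier results of these data known. Alternatives covered the slide, the replicate number, arrays, normalization, filter, weights, threshold and each sample left out. Promoter motifs were not analysed here.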

Additional observations from a re-analysis of the deposited data

Results flagged for a closer look

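In 72 cases 1 sample stood farther from the rest of its group than Dixon's test allows, taken over the 6 fed samples together, the 4 without addition and the 4 of batch. Chance alone gives such a case in about 1 of 20 groups. The 247 named genes and 37 gene lists were each examined in all of these groups, so that a large part of the 72 may be chance. The fed samples include both feeds, which differ from each other in many genes. Values are log2 intensities for genes and median deviations from the mean of the 4 groups for lists.

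Among fed samples, ammonium sample 2 stood apart in ADE16 at 10.84, ALA1 9.16, CTT1 12.38, CYC7 11.73, DAL4 10.23, GIP2 9.59, HXT6 12.67, MEP1 9.62, MET17 13.88, MMP1 7.55, POT1 7.45, SUL2 10.76, TIM11 9.75 and YAT2 9.81. In the gene lists it did so in lysine synthesis at 0.42, sulfate assimilation and sulfur amino acid synthesis 0.59, one-carbon and glycine metabolism 0.30, general stress and heat shock -0.24 and trehalose and glycogen 0.24. The direction was toward the starved samples in the lists for sulfur, lysine, one-carbon units, stress and trehalose and glycogen. Valine sample 1 stood apart in DIT2 at 6.69 and DUS3 9.18, and valine sample 3 in SPS100 at 8.38 and in the list pentose phosphate pathway at -0.0313.

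Without addition, sample 4 stood apart in ADE3 at 12.19, CPS1 11.90, HUG1 7.03, MET14 9.69, PDC5 13.13, PET18 10.48, PHO3 9.002, SNZ1 9.12, SNZ2 7.27, SSA2 8.89, THI11 9.72, THI12 10.61, THI13 8.56, THI22 9.57 and THI5 10.80, and in the list thiamine and vitamin B6 synthesis at -0.75. Sample 1 stood apart in CWP1 at 11.94, IDP1 10.46, LYS5 9.62, MUP3 9.68, RTC3 11.48 and URA10 11.49, and in the list glycerol at 0.0190. Sample 2 did so in GPD1 at 13.71, MMP1 6.05, PHM8 11.47 and SPO13 6.06, and sample 3 in ERB1 at 8.84, KRS1 13.03, OLE1 15.66 and PMA2 11.84.

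In batch, sample 1 stood apart in AGP2 at 7.35, ALD6 11, AMS1 13.01, CCC2 8.99, FTR1 9.51, ILV3 10.24, NDT80 7.87, PMA1 13.08, RPC34 10.02, THI11 6.98, THI5 7.88 and YAT2 9.77, and in the list autophagy and vacuolar proteases at 0.14. Sample 3 did so in ARG1 at 12.82, NOP16 10.67 and RPA190 9.80, and sample 4 in RPS4A at 12.80 and in the list nitrogen catabolite repression targets at 0.28.

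The feeds differed from each other in 1023 genes and the starved states in 3582 genes, each by a limma test of the difference itself. In the sample whose labels name both ammonium and valine, which entered no comparison, the 1161 common higher genes had a median deviation of 0.41 from the mean of the 4 groups. In the assigned fed samples this median was 0.29 to 0.43.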

How the results depend on the processing

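Of the 247 genes named, 0 of those called in the pooled contrast changed direction in any alternative, while ARX1, ERB1, GLN4, GRX1, MET4, RSA4 and RTC3, which were not called, changed sign in some. Of the list medians that of amino acid permeases alone changed sign, from -0.02 to 0.03 on slide 1 and to 0.08 without the dimmest 25% of genes. Of the 2387 common genes 2295 were also common with the slide as a block, 2260 without batch sample 1, ammonium sample 2 and valine sample 3, and 2219 with the replicate block. On slide 1 alone, with 1 ammonium and 1 no-addition sample assumed to vary like the others, 665 genes were common higher, 674 lower, 11 and 8 lay between the starved states (above and below no addition), 38 differed between the feeds and 1682 between the starved states. On slide 2 alone 69 and 30 lay between, 228 differed between the feeds and 2387 between the starved states. In both cases fewer samples entered. On slide 1 the pooled difference of MEP1 went from -0.43 to -0.69, of GCN4 from -0.23 to -0.09 and of STR2 from 0.29 to 0.48. Array weights gave 186 and 145 between and 2471 between the feeds, and the cause was not tested. At an adjusted p under 0.01 these were 73, 35 and 435. With a difference of at least 1 in each pair 225 genes were common higher and 185 lower. Without the 3 samples named above 127 genes lay below no addition and above batch, and 1576 differed between the feeds. Leaving out each sample in turn, pooled calls ran from 2067 to 2188 higher and 2318 to 2468 lower, common genes from 1062 to 1179 and 1116 to 1252, genes between from 96 to 151 above and 51 to 110 below no addition, differences between the feeds from 501 to 1322 and between the starved states from 3303 to 3862. Replicate numbers did not pair the samples: 4 of 19 same-number pairs correlated above 0.1 in their deviations (r from -0.57 to 0.31), and 2 of 14 samples correlated best with their own number. The replicate block gave 2061 and 2316 pooled calls, 1083 and 1151 common genes, 102 and 60 between, 708 between the feeds and 3442 between the starved states. A fit with 2 groups, which counts the differences within each side as spread, called 1810 higher and 1963 lower. No detection flags were used here, so dim genes are limited by signal over background that could not be read.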

Other observations

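Of the 6248 features 1051 had no gene symbol (16.8%), as against 10.1% of the 2387 common ones, 87 of them higher and 154 lower. A few of them changed as much as the named genes. Probe A_06_P5547 lay at 7.01 to 7.85 in fed and 11.91 to 12.57 in starved samples, a difference of -4.76 ± 0.11, and probe A_06_P1368 differed by -4.12 ± 0.12. Probe A_06_P5745 lay at 11.73 to 12.34 in fed and 8.53 to 9.42 in starved samples, a difference of 3.04 ± 0.11, and probe A_06_P4222 differed by 2.42 ± 0.11. All 4 had the same direction for both feeds against both starved states by limma. The annotation used here gives no symbol for these probes, so no role is given.

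The sample whose title names ammonium and whose treatment label names valine had log2 intensities of 10.70 for AGP1, 11.16 for BAT2, 10.38 for GDH2, 12.50 for GDH1, 9.35 for PUT4, 10.16 for SNZ2, 8.43 for GIT1 and 11.74 for DUR3. Its values for genes common to both feeds were 6.87 for HXT5, 11.60 for HSP12, 14.20 for MET17 and 15.85 for THI4. Over the common lower genes its median deviation was -0.39.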
